A study of Mus musculus with 2 samples.

Results

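The 30 genes described here make cholesterol from acetyl-CoA or set how much of it a cell makes, exports and takes up, out of 21938 protein-coding genes of the mouse annotation. They were taken by symbol: 9 enzymes of the mevalonate branch, which ends at squalene, 10 enzymes that turn squalene into cholesterol, and 11 control genes. The control genes comprise 6 of the SREBP arm and 5 of the LXR arm. Chromatin accessibility around them was measured by DNase-seq, in which the nuclease DNase I cuts open DNA in isolated nuclei, in the whole adrenal gland. The mice were females, 36 days old, of the strain B6CASTF1/J, an F1 hybrid of C57BL/6J with the wild-derived CAST/EiJ, with no treatment named in the labels. There were 2 libraries in 1 group, biological replicates 1 and 2. The labels number the animals differently but give both the same donor record, so the spread between the replicates may be partly technical. A single group of 2 allows no p-value, and the comparisons are between classes of genes within each library, with genes not being replicates.

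Cholesterol synthesis starts in the mevalonate pathway, which builds isoprenoid units and joins them into squalene. Squalene is then oxidised, closed into the sterol lanosterol and trimmed to cholesterol. When membrane cholesterol falls, the SREBP transcription factors are carried from the endoplasmic reticulum by Scap, freed from the retention proteins Insig1 and Insig2, cut, and sent to the nucleus, where they bind sterol regulatory elements, usually together with NF-Y on a nearby CCAAT box or with Sp1. When oxysterols build up, the nuclear receptors LXRα and LXRβ turn on cholesterol efflux and LDL receptor breakdown. In the adrenal cortex cholesterol is the raw material of all steroid hormones.

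Replicate 1 had 157595 peaks and replicate 2 had 166206, each called from that library's own reads, and 297594 and 298189 footprints, which are small sites that DNase I cut less than the open DNA around them. Height means the authors' signal value of a peak, whose scaling is not given in the sources used here. Of the 9 cortex markers checked, 9 and 8 had a promoter peak in replicates 1 and 2, with median heights of 6.15 and 9.07, where 68.6% and 69.6% of all protein-coding genes have a peak and genes with a peak in both libraries have medians of 7.13 and 10.6. The steroidogenic factor gene Nr5a1 and the cholesterol carrier gene Star were among them, and the gene without a peak in replicate 2 was the ACTH receptor gene Mc2r (0.757 and 0). Chromaffin markers had medians of 1.00 and 1.14, and 5 and 6 of 7 had a peak. Among them Slc18a1, with 17.8 and 25.5, stood above every cortex marker, whose highest was Fdx1 with 11.0 and 16.8. Chgb had 10.4 and 17.0. Capsule and stroma markers had medians of 4.45 and 6.70, with a peak at 4 of 5 in both. Endothelial markers had 1.82 and 2.27, with a peak at 4 and 5 of 5. Adipocyte markers had 0.738 and 0.927, though Lipe, a lipase gene that steroid-producing cells also express, had 12.3 and 20.7. Macrophage, liver, kidney and muscle markers each had a median of 0, though the muscle gene Ckm had 3.22 and 7.34 and the liver gene Apoa2 3.58 and 4.86. The part of these other cell types in the results was not tested. In a whole gland, the share of cells with an open site and the openness per cell cannot be told apart.

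The sequences of 4 genes show how CCAAT boxes and sterol elements are arranged just upstream of the first annotated start. They are Hmgcs1, which held the single exact sterol element, Hsd17b7 and Sqle, enzymes with repeated CCAAT boxes, and Srebf2, the master regulator of the pathway. All are from the mm10 reference of C57BL/6J, printed 5′ to 3′ on the strand of the gene, and CAST/EiJ alleles were not read. Capital runs of 5 bases are CCAAT or its reverse complement ATTGG. Capital runs of 9 bases match the sterol element TCACNCCAC or its reverse complement exactly (the second such run of Hmgcs1) or with 1 mismatch (the others).
Hmgcs1, chr13:119690073-119690350, plus strand: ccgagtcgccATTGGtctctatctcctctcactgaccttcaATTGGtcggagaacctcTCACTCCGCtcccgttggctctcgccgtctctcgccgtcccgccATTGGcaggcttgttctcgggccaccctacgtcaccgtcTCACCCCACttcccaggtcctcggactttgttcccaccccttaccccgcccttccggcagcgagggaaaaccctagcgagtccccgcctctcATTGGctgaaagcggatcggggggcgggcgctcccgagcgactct
Hsd17b7, chr1:169969243-169969380, minus strand: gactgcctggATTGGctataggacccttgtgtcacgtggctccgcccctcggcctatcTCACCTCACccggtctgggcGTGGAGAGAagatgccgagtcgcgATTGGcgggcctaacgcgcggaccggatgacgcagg
Sqle, chr15:59314906-59315076, plus strand: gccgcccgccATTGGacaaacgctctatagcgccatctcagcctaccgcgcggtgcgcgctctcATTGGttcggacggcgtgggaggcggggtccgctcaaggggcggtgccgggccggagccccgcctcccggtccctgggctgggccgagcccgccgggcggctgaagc
Srebf2, chr15:82147097-82147180, plus strand: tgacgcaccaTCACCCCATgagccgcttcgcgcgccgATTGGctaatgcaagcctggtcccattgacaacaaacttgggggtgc

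Every one of the 30 genes had an open promoter in both glands. All 30 had a peak reaching within 1 kb of an annotated transcription start site (TSS) in replicate 1 and in replicate 2, against 68.6% and 69.6% of all protein-coding genes and 67.4% in both. The height of a gene's promoter was that of its tallest such peak. The median over the 30 was 12.8 in replicate 1 and 18.9 in replicate 2. Over all protein-coding genes, those without a peak set to 0, it was 2.97 and 4.46, and over the 14797 genes with a peak in both libraries 7.13 and 10.6. In each library 29 of the 30 lay above the all-gene median, which 50% of genes exceed, and the exception was Abcg1. Among the highest 10% of all genes were 13 of the 30 in replicate 1 and 10 in replicate 2.

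The 3 parts of the pathway had promoters of similar height. In replicate 1 the median was 12.0 for the mevalonate genes, 13.1 for the post-squalene genes and 13.3 for the control genes. In replicate 2 the medians were 17.7, 18.3 and 19.1. The order was the same in both libraries, but the gaps were small beside the ranges within a class, which were 8.95 to 18.3, 5.92 to 22.9 and 1.31 to 22.5 in replicate 1. Within the control genes the SREBP arm had medians of 16.1 and 22.5 and the LXR arm 10.4 and 13.3. All 30 genes were higher in replicate 2, as were 96.4% of genes with a peak in both. The log2 ratio of replicate 2 to replicate 1 ran from 0.28 to 0.81 with a median of 0.52, against 0.57 over all genes with a peak in both. SDs over the replicates include this general shift.

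**Figure D1:**
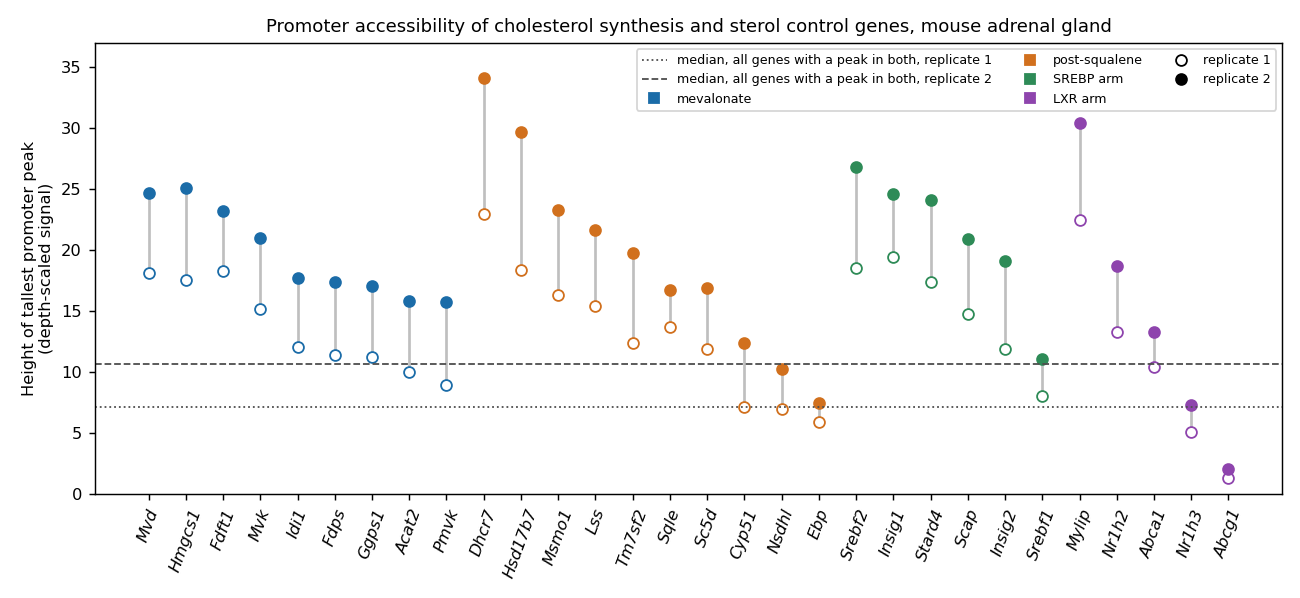
Height of the tallest promoter peak (authors' signal) of each gene, by class and from tallest to lowest mean, in replicate 1 (open) and replicate 2 (filled). Lines mark the medians over all genes with a peak in both libraries, 7.13 (dotted) and 10.6 (dashed). Every filled point lies above its open point, and Abcg1 at 1.31 and 2.02 is the lowest gene.

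The tallest mevalonate promoters were those of Mvd, Hmgcs1 and Fdft1. Mvd, the decarboxylase that makes isopentenyl diphosphate, had heights of 18.1 and 24.7 (mean 21.4 ± 4.65, SD, n = 2), at chr8:122443421-122443720 in replicate 1, 149 bp upstream of its TSS. Hmgcs1, the synthase that makes HMG-CoA, had 17.6 and 25.1 (21.3 ± 5.34) at chr13:119690061-119690480. Fdft1, squalene synthase and the first enzyme committed to sterols, followed with 18.3 and 23.2. These 3 lay close together in each gland, with differences smaller than the gap between the glands.

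The lowest 2 promoters of the branch were those of Pmvk and Acat2. Pmvk, phosphomevalonate kinase, had 8.95 and 15.7 (12.3 ± 4.79). Acat2, the cytosolic thiolase that joins 2 acetyl-CoA, had 10.02 and 15.8 (12.9 ± 4.12). For Acat2 the tallest peak was not the same site in both libraries: chr17:12960661-12960840 in replicate 1 and chr17:12960361-12960540 in replicate 2. Pmvk also had the largest ratio between the glands of the 30, with a log2 ratio of 0.81, followed by Cyp51 with 0.80. Mvk (mevalonate kinase), Idi1 (the isomerase of isopentenyl diphosphate), Fdps (farnesyl diphosphate synthase) and Ggps1 (geranylgeranyl diphosphate synthase, off the sterol path) lay between, at 11.2 to 15.2 in replicate 1 and 17.0 to 21.02 in replicate 2.

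The promoter peak of Mvk is shared with a gene of another pathway. It measured 15.2 and 21.02 at chr5:114443981-114444260, with its centre 148 bp upstream of the TSS of Mvk and 61 bp from that of Mmab, which encodes an enzyme that makes the cobalamin cofactor. No other peak within 1 kb of Mvk was nearer to its own TSS, so the height cannot be divided between the genes.

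Among the post-squalene genes the enzyme of the last step had the tallest promoter of all 30. Dhcr7, the 7-dehydrocholesterol reductase that makes cholesterol, had 22.9 and 34.1 (28.5 ± 7.87) at chr7:143822841-143823120. This peak too is shared: its centre lay 186 bp from the TSS of Dhcr7 and 140 bp from that of Nadsyn1, an NAD synthase gene. When only peaks nearest to a start of Dhcr7 itself were counted, its tallest was at chr7:143830041-143830260, 6.98 kb into the gene, with 10.6 and 17.0. Hsd17b7, a sterol 3-ketoreductase, followed with 18.4 and 29.6 (mean 24 ± 7.99) at chr1:169969181-169969440, 70 bp upstream of its TSS.

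Ebp and Nsdhl were the lowest post-squalene promoters, and both genes are X-linked. Ebp, the sterol isomerase, had 5.92 and 7.49 (6.71 ± 1.11), and Nsdhl, a C4-demethylating dehydrogenase, had 6.95 and 10.3 (8.62 ± 2.36). The peak of Nsdhl had its centre nearer to the TSS of Cetn2, a centrin gene, at 30 bp, than to its own, and no other peak in the window was nearer to Nsdhl. The peak of Ebp lay 571 bp downstream of the TSS in the basic annotation and 43 bp upstream of a start in the comprehensive set, at 8192898. No autosomal enzyme gene had a lower mean than Nsdhl, but 2 genes are too few to describe the chromosome.

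Of the other post-squalene genes Msmo1 was the tallest and Cyp51 the lowest. Msmo1 (sterol methyl oxidase) had 16.3 and 23.3, Lss (lanosterol synthase) 15.4 and 21.6, Tm7sf2 (a sterol C14-reductase) 12.4 and 19.8, and Sc5d (a sterol desaturase) 11.9 and 16.9. Sqle, the squalene epoxidase and a rate-controlling step, had 13.7 and 16.7, with the smallest difference between the glands of the 30 (log2 ratio 0.28). Cyp51, the lanosterol demethylase, had 7.11 and 12.4, close to Nsdhl in replicate 1. Sqle lay above Tm7sf2 in replicate 1 and below it in replicate 2, so the order of these neighbours was not kept.

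In the SREBP arm, Srebf2 and Insig1 had the tallest promoters. Srebf2, whose product SREBP-2 drives the cholesterol enzymes, had 18.6 and 26.8 (22.7 ± 5.81) at chr15:82147001-82147280. Insig1, which retains the SREBP complex when sterols are plentiful, had 19.4 and 24.6 (22.0 ± 3.66) at chr5:28071121-28071380. The order of the pair differed between the glands. Insig1 had a log2 ratio of 0.34, together with Ebp the lowest after Sqle.

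Stard4, a carrier that moves sterol between membranes, had 17.4 and 24.1, and Scap, the SREBP escort, had 14.7 and 20.9. Insig2, the second retention protein, had 11.9 and 19.1 (15.5 ± 5.09). Srebf1, whose products SREBP-1a and SREBP-1c act more on fatty acid synthesis, had the lowest promoter of the arm at the start in the basic annotation, 8.01 and 11.1 (9.53 ± 2.16), at chr11:60220541-60220740.

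The tallest open site of Srebf1 was not that promoter but a second one inside the gene. A peak at chr11:60210401-60210620, 10.1 kb downstream of the start, had 13.3 in replicate 1 and 18.7 in replicate 2 (16.0 ± 3.82). It was 1.67-fold and 1.69-fold as tall as the peak at the upstream start. The basic set of GENCODE M21 used for the 30 genes has no start there, so the site was counted as distal. The comprehensive set has a start at 60210465 and RefSeq has one at 60210485, 46 and 26 bp downstream of the centre of the peak. SREBP-1a is known to be transcribed from the upstream start and SREBP-1c from the downstream one. Which transcripts are made cannot be read from accessibility.

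The bases of that peak upstream of all annotated starts show 1 CCAAT box (capitals) close to the start and no match to the sterol element, even with 1 mismatch.
Srebf1, second start, chr11:60210486-60210620, minus strand: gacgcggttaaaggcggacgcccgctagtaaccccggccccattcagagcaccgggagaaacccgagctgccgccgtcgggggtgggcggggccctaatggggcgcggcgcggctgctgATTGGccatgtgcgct
The peak held 2 GC boxes (GGGCGG, bound by Sp1) and the peak at the upstream start held 3 GC boxes and no CCAAT box. A repeat of GGTCA with a gap of 4 bases was found in neither peak with up to 1 mismatch. The classical LXR site repeats AGGTCA with that gap, which sets the GGTCA letters 1 base further apart, so it was not searched. Footprints numbered 6 and 5 at the downstream start and 4 and 5 at the upstream start.

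**Figure D2:**
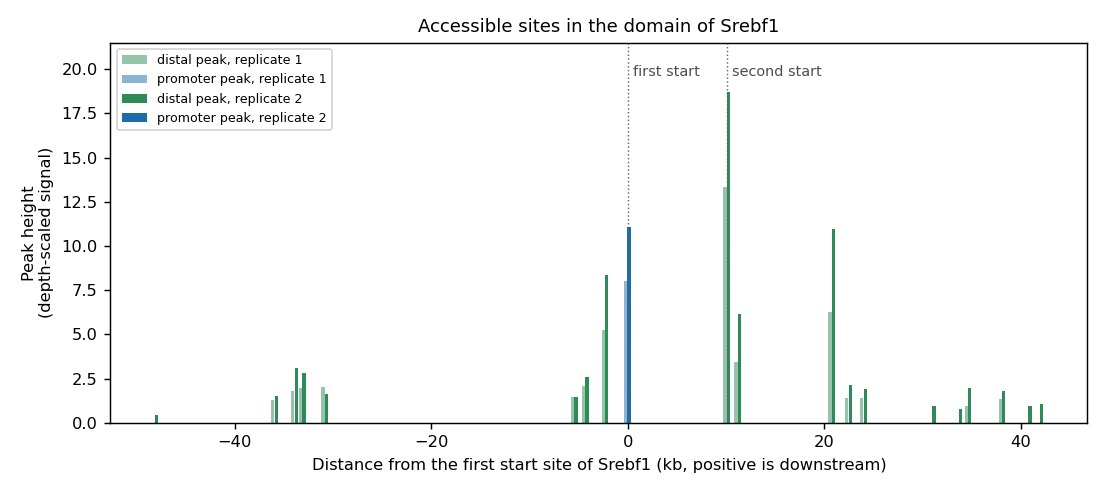
Heights of the promoter peak and the distal peaks of Srebf1 (authors' signal) by distance from its first start in the basic annotation (kb), in replicate 1 (pale) and replicate 2 (dark), drawn side by side. Blue bars are the promoter peak at the first start (8.01 and 11.1) and the tallest green bars, at the second start, reach 13.3 and 18.7.

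The LXR arm held both extremes of the control genes. Mylip, also called Idol, the ubiquitin ligase that marks lipoprotein receptors for breakdown, had 22.5 and 30.4 (26.4 ± 5.62) at chr13:45389521-45389760, the second tallest of all 30. Nr1h2, which encodes LXRβ, had 13.3 and 18.7 (16.0 ± 3.82). Abca1, the efflux pump to apolipoprotein A-I, had 10.4 and 13.3 (11.8 ± 2.06). Mylip stood above the other LXR genes by more than the gap between the glands.

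The lowest 2 were a receptor and an efflux pump. Nr1h3, which encodes LXRα, had 5.06 and 7.30 (6.18 ± 1.58) at chr2:91195121-91195280. Abcg1, the efflux pump to HDL, had 1.31 and 2.02 (1.66 ± 0.50) at chr17:31057581-31057860. With the comprehensive starts the value of Nr1h3 became 10.4 and 13.1, from a peak at chr2:91202741-91202960 whose centre lay 58 bp from the TSS of the neighbour Acp2. For Abcg1 the basic and comprehensive starts gave the same peak.

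CCAAT boxes, the core of the NF-Y site, were frequent in the promoter peaks of the enzymes. The element was found on either strand in the promoter peaks of 21 of the 30 genes in each library, against 32.4% and 31.1% of all promoter peaks in replicates 1 and 2. Among promoter peaks in the height deciles of the 30 the shares were 44.2% and 41.1%. Among the 19 enzyme genes 16 had it in each library. The enzymes without it were Pmvk and Dhcr7 in both libraries, Acat2 in replicate 1 and Ggps1 in replicate 2. In the SREBP arm 3 of 6 had it (Srebf2, Insig1 and Stard4) and in the LXR arm 2 of 5 (Mylip and Abcg1).

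Many enzyme promoters held several CCAAT boxes. At least 2 were present in 11 of the 19 enzyme genes in replicate 1 and 12 in replicate 2, and in 2 of the 11 control genes in both. Over all promoter peaks the shares were 12% and 11.3%. Taller and wider peaks hold more sequence: among promoter peaks in the height deciles of the enzymes, 20.9% and 18.4% had at least 2, and in their width deciles, 15.4% and 12.8%. The density was 0.957 and 0.962 boxes per 100 bp of peak for the mevalonate genes and 0.756 and 0.734 for the post-squalene genes. It was 0.429 and 0.435 in the SREBP arm, 0.370 and 0.392 in the LXR arm, and 0.231 and 0.227 over genes with a promoter peak in both libraries. No test was made of these differences.

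**Figure D3:**
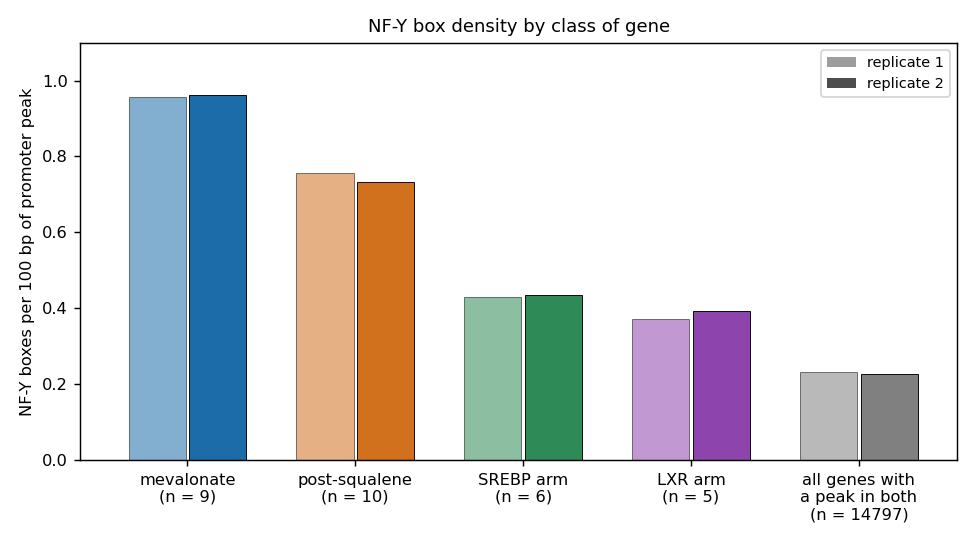
CCAAT (NF-Y) boxes per 100 bp of promoter peak in each class of gene, in replicate 1 (pale) and replicate 2 (dark), with no error bars because each bar is a ratio of sums within 1 library. The mevalonate bars stand at 0.957 and 0.962 and those of all genes with a peak in both at 0.231 and 0.227.

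Hmgcs1 had 5 CCAAT boxes in its promoter peak in both libraries, 4 of them in the printed stretch. Fdft1 and Stard4 had 4 in both. Idi1, Hsd17b7 and Mylip had 3 in both. Nsdhl had 4 and 3, and Msmo1 had 3 and 2. Mvk had 5 in replicate 1 and 2 in replicate 2, because the edges of its peak differed between the libraries. The boxes of a gene lay 7 to 131 bp apart in replicate 1, and the 3 gaps within Fdft1 were 32, 50 and 35 bp.

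The boxes faced the same way more often than over all promoter peaks. Of the 50 boxes in the promoter peaks of the 30 genes in replicate 1, 35 (70%) read CCAAT on the strand opposite to the gene, that is, ATTGG on the gene's strand as in the printed stretches. In replicate 2 this was 35 of 46 (76.1%). Over all promoter peaks it was 50.4% and 50.2%. The gene's strand was used also for Mvk and Nsdhl, whose peaks lie nearer to the TSS of another gene. Boxes within a gene and in both libraries are not independent, and the difference was not tested. Their median position was 63.5 and 73 bp upstream of the nearest TSS, close to the 66 and 65 bp of all promoter peaks.

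Footprints overlapped many of these boxes, where 1 bp of overlap was enough and some footprints touched only the edge of a box. The box of Hmgcs1 at chr13:119690114-119690118, for example, met a footprint that ended at 119690114 in replicate 1. A footprint overlapped 29 of the 50 boxes (58.0%) in replicate 1 and 33 of 46 (71.7%) in replicate 2, against 50.3% and 53.6% over all promoter peaks. For the mevalonate genes the counts were 13 of 22 and 18 of 20, and for the post-squalene genes 10 of 18 and 10 of 16. The libraries differed more for the mevalonate genes than for the others, so the share of boxes touched by a footprint is known only roughly. Counted by peak, 18 of the 30 had a box under a footprint in each library. This held for 29.8% and 28.9% of promoter peaks in their height deciles and for 18.3% and 18.6% of all. A footprint of any kind was present in the promoter peak of all 30 genes in replicate 1 and of 29 in replicate 2, against 95.8% and 95.7% of all promoter peaks. The exception was Abcg1. The median number per peak was 5 and 4, against 4 and 4 over all promoter peaks.

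The exact sterol element TCACNCCAC occurred in the promoter peak of 1 of the 30 genes, Hmgcs1, at chr13:119690214-119690222, and in 0.764% and 0.721% of all promoter peaks. A footprint touched it in both libraries, but only at its edge, where 0.266% and 0.256% of all promoter peaks hold the element under a footprint. The footprint of 18 bp in replicate 1 covered 2 of its 9 bases, and that of 14 bp in replicate 2 covered 1. With up to 1 mismatch an element was found in 12 of the 30 in replicate 1 and 11 in replicate 2, where 18.2% and 17.9% of all promoter peaks have it. The 11 with it in both libraries were Hmgcs1, Fdps, Fdft1, Cyp51, Msmo1, Hsd17b7, Srebf2, Insig1, Stard4, Nr1h3 and Mylip. That of Srebf2 lay upstream of its CCAAT box, as printed. The E-box form TCACGTGA was in none of the 30 and in 1.59% and 1.63% of all promoter peaks, under a footprint in 1.33% and 1.37%.

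The cAMP response element TGACGTCA, bound by CREB, was found in the promoter peaks of Pmvk and Idi1 in both libraries, and in 3.44% and 3.41% of all promoter peaks. In both genes and both libraries a footprint of 23 to 28 bp covered all 8 of its bases, and 3.27% and 3.21% of all promoter peaks hold the element under a footprint. They are shown with the element in capitals.
Pmvk, chr3:89459073-89459102, plus strand: aggcggggccaTGACGTCAcatctgggcgg
Idi1, chr13:8885809-8885838, plus strand: tggcgcggccgTGACGTCAggcttgtgcta
GC boxes (GGGCGG) were in 25 and 24 of the 30 promoter peaks, against 63.2% and 62.6% of all and 75.9% and 74.1% of those in the height deciles of the 30. They were under a footprint in 23 and 21, against 47% and 48.4% of all and 63.9% and 63.9% in those deciles. The LXR repeat, the SF-1 site CAAGGTCA and the NRF1 site were in the promoter peak of none of the 30. Of all promoter peaks, 0.0266% and 0.0262% held the LXR repeat, 0.0133% and 0.0131% under a footprint. The SF-1 site was in 0.837% and 0.904%, under a footprint in 0.425% and 0.393%. The NRF1 site was in 1.97% and 1.99%, under a footprint in 1.96% and 1.97%. No match says only that these letters are not in these peaks.

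Away from promoters, the domains of the 30 genes held a median of 7.5 distal peaks in replicate 1 and 7 in replicate 2. Over all genes the median was 5 and 5, and over genes with a promoter peak in both libraries, as all 30 have, 6 and 7. Each gene was given its transcribed span and at most 50 kb on either side, less where another protein-coding gene starts. Peaks centred over 1 kb from any TSS were counted as distal. The medians were 6 and 6 for the mevalonate genes, 6.5 and 6.5 for the post-squalene genes and 9 and 8 for the control genes, whose domains were longer, with a median of 107.3 kb against 66.5 and 84.1 kb. Per 10 kb the medians were 0.902 and 0.902, 0.808 and 0.8997, and 0.932 and 0.652, so the control genes were denser in replicate 1 and sparser in replicate 2.

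By the mean of both libraries, distal peaks were densest around Fdps, Fdft1 and Srebf1. Fdps had 10 and 9 in a domain of 42.8 kb, or 2.33 and 2.10 per 10 kb. Fdft1 had 11 and 15, or 1.55 and 2.11 per 10 kb, and Srebf1 had 14 and 19, or 1.45 and 1.96. Abcg1, the gene with the lowest promoter, had 21 and 20 distal peaks, or 1.72 and 1.64 per 10 kb, which is above Fdft1 and Srebf1 in replicate 1 and below them in replicate 2. At the other end Ggps1 had none in a domain of 24.1 kb, and Tm7sf2 had none in replicate 2. A distal peak was thus present for 29 and 28 of the 30, against 84.5% and 85.7% of all genes.

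The tallest distal peaks after that of Srebf1 belonged to Abca1 and Fdft1. Abca1 had one of 8.05 and 11.7 (9.90 ± 2.61) in its own intron at chr4:53158721-53158920, 1.07 kb from its TSS. It also reaches into the promoter window, where the taller peak at the TSS was used. A second, at chr4:53196081-53196260, 36.3 kb upstream between genes, had 6.86 and 11.5. Fdft1 had 6.53 and 11.5 (9.03 ± 3.54) in its own intron at chr14:63164761-63165100, 12.9 kb from its TSS. The comprehensive annotation has a start of Fdft1 105 bp from its centre. Further distal peaks lay in Srebf1 at 20.8 kb (6.24 and 11.0), in Dhcr7 at 2.19 kb (6.04 and 8.68) and upstream of Mvd at 1.19 kb (5.26 and 9.30). These distances are from the nearest basic start, which for Dhcr7 is a start inside the gene. RefSeq has a further start of Dhcr7 382 bp from the centre of that peak in replicate 1.

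In nearly all of the genes the promoter was the tallest site. Of the 29 and 28 that have both kinds of peak, a distal peak was taller in 2 in both libraries, Srebf1 and Abcg1. Over all genes with both kinds this was so in 30.2% and 30.5%. The 30 have taller promoters in the median than all genes with a promoter peak, and no share among promoters of like height was taken. The distal peak of Srebf1 is at a start in other annotation sets. In Abcg1 the tallest distal peak had 2.86 and 4.55, 61.9 kb downstream of its start. For Mylip and Stard4, among the tallest promoters, the tallest distal peaks reached only 0.981 and 1.13, and 0.561 and 0.627. Where a gene has both, the promoter was a median of 5.00 and 4.32 times as tall as the tallest distal peak.

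**Figure D4:**
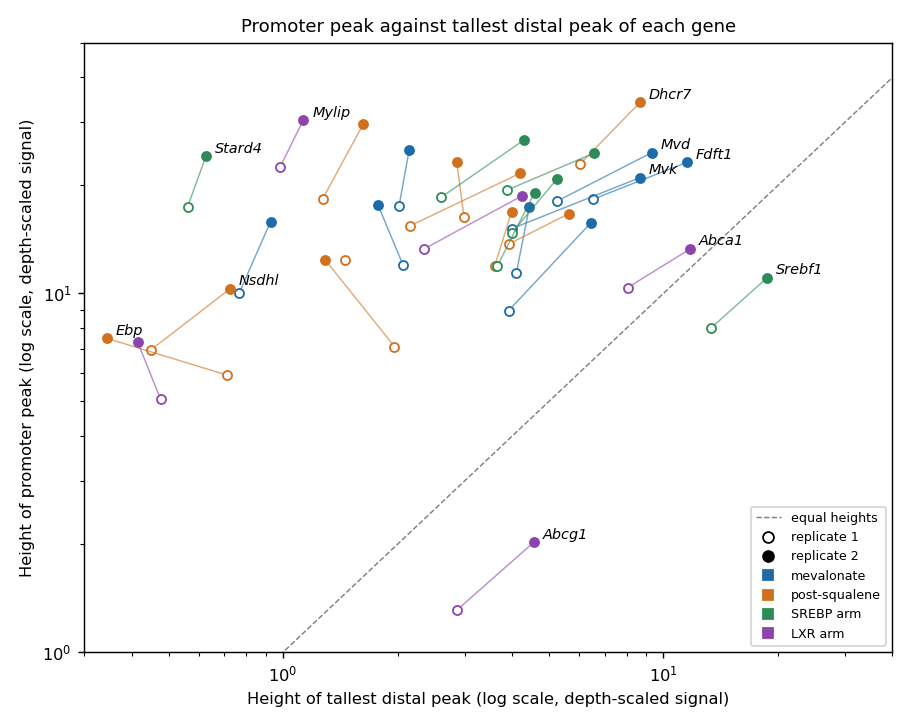
Height of the promoter peak (vertical, log scale) against that of the tallest distal peak (horizontal, log scale) of each gene, both in the authors' signal, with replicates joined by a line. Srebf1 and Abcg1 lie below the dashed line of equal heights, and Stard4 and Mylip lie far above it.

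The site of SF-1 (CAAGGTCA), the transcription factor of steroid-producing cells, is more common at distal peaks than at promoter peaks over all genes. Only 0.837% and 0.904% of all promoter peaks hold it, so its absence from those of the 30 says little. Among the 30 genes the site was found only at distal peaks. It was in 22 of their 234 distal peaks in replicate 1 and in 18 of 237 in replicate 2, which is 9.40% and 7.59%, against 5.11% and 4.62% of all distal peaks. Among sites open in both libraries 18 held it, near 15 genes. The tallest of these were in an exon of Dhcr7 at chr7:143833641-143834000 (5.10 and 5.11), near Mvk at chr5:114462521-114462720 (2.89 and 4.51) and in an intron of Scap at chr9:110375761-110375960 (2.93 and 3.46). The peaks of Dhcr7 hardly differed between the glands and those of Mvk did. The sites not named here had means of 0.322 to 1.98, where the medians over all distal peaks were 0.804 and 0.865. Peaks near the same gene share a domain, and the difference in shares was not tested.

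The exact sterol element was in 4 of the 234 distal peaks in replicate 1 and 4 of the 237 in replicate 2, or 1.71% and 1.69%, against 0.789% and 0.781% of all distal peaks. Of these, 3 sites were open in both libraries. The tallest, with 5.22 and 8.38, was at chr11:60222821-60223000, upstream of the first start of Srebf1 in the basic annotation. It lies between genes, but just beyond the upstream end of the annotated span of Srebf1 at 60222581. One upstream of Fdps at chr3:89123361-89123600 had 4.10 and 4.44, and one in an intron of Fdft1 at chr14:63148665-63148840 had 1.14 and 1.09. The difference in shares rests on 4 peaks in each library and was not tested.

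Genes of fatty acid synthesis had lower median promoter heights than the 30. Of 12 fatty acid synthesis genes regulated by SREBP-1, all had a promoter peak in both libraries, with medians of 6.07 and 8.12. Acly, which makes cytosolic acetyl-CoA, had 18.0 and 28.1, and Fasn, the fatty acid synthase, 13.1 and 21.6. Acaca, the acetyl-CoA carboxylase, had 0.701 and 0.327, and Scd1, a desaturase, 3.18 and 4.45. The list thus runs from the height of the sterol enzymes down to some of the lowest promoters with a peak. At least 2 CCAAT boxes were present in 4 of the 12 in each library, against 12% and 11.3% of all promoter peaks.

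The lists closest to the sterol pathway had medians between those of the fatty acid genes and the 30. The 8 genes of SREBP processing and sterol-dependent degradation had medians of 8.92 and 13.5. Mbtps1, the site-1 protease, had 15.3 and 22.7, while Mbtps2, the site-2 protease on the X chromosome, had 1.68 and 2.90. The 8 genes of the isoprenoid branches, which use farnesyl and geranylgeranyl diphosphate for dolichol, ubiquinone and protein prenylation, had medians of 9.97 and 16.5. CCAAT boxes in the promoter peak were found in 1 and 2 of 8 genes of these lists, in both libraries. Over all promoter peaks the shares were 32.4% and 31.1% in replicates 1 and 2, and the difference was not tested. These lists share no gene with the 30.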

How the data were processed

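DNase-seq libraries of whole adrenal gland from female B6CASTF1/J mice, replicates 1 and 2 of 1 group, were analysed. Per the labels and the text the authors deposited with each sample, all files are on mm10 and made from each library's own filtered alignments. No source used here names the aligner, the peak caller, their versions or their thresholds. The deposited peak height is a signal scaled by the authors, so read counts are unknown and no counting interval is given. The deposited table of false discovery rates (q-values) lists positions under 0.05, and the deposited p-value column of the footprint lists is constant, so footprints were not ranked.

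From each library's pair of peak lists the longer was used. Every peak of it touched a position under 0.05. Genes and TSSs came from the basic set of GENCODE M21, and sequence from the RefSeq copy of the same assembly, which was not shorter than the last peak on any of 21 chromosomes. The 8 motifs were searched on both strands with exact matches in the tallest promoter peak, and a footprint was counted with an overlap of at least 1 bp. Every 32-mer of the promoter peaks of the 30 genes in replicate 1 occurred once in the genome. Height and width deciles were taken over all promoter peaks. Means and SDs are over the 2 replicates. Functions were tested on simulated data. Python 3.11.15, numpy 2.4.6, pandas 2.3.3 and matplotlib 3.10.9 were used.

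The 30 genes and the other lists were chosen with earlier results of these data known. All 30 are accounted for. Named in full are the 2 tallest and 2 lowest promoters of each class, those with the largest and smallest ratio between replicates, the densest and tallest distal sites, genes with a sterol element and genes whose peak lies nearer another gene's TSS. The comprehensive and RefSeq starts, the orientation of CCAAT boxes and the count of genes with at least 2 of them were examined after seeing the data. Other peak lists, windows, assignments of peaks, start sites, scalings and overlaps were tried, and each replicate was left out.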

Additional observations from a re-analysis of the deposited data

How the results depend on the processing

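The number of genes with a promoter peak, the class medians of promoter height, the number with a footprint and the number of enzyme genes with at least 2 CCAAT boxes (11 in both libraries) stayed within the replicate spread, or within 1.5 times for counts, under all alternatives run for them. For heights that spread was the SD of the 2 replicates, which includes their general shift, so it is a loose limit. Leaving out 1 of 2 replicates always moves their mean by less than this SD, so that alternative could not have failed for heights. It gave class medians of 12.0 to 17.7 for mevalonate, 13.1 to 18.3 for post-squalene and 13.3 to 19.1 for control genes. Of single genes, Mvk and Nsdhl had no peak nearest to a start of their own, Dhcr7 fell from 28.5 to 13.8 by that rule, and with comprehensive starts, an alternative added after seeing the data, Srebf1 rose from 9.53 to 16.0 and Nr1h3 from 6.18 to 11.7. Numbers of distal peaks depended on the definition. The mean of the library medians for mevalonate, post-squalene and control genes was 6, 6.5 and 8.5, but 3, 3 and 2 with flanks of 10 kb, 9, 10.25 and 17.5 with flanks of 200 kb, 4, 3.5 and 5 with the shorter peak list, 4, 2.25 and 4 with peaks above the library's median height, and 7.5 for control genes with centres over 2 kb from any TSS. The sterol element was in 1 promoter peak, but in 11 with up to 1 mismatch, and under a footprint in 1, but in 0 with the whole element inside the footprint. No paired analysis was possible because there is 1 group. Depth is unknown, so low or absent peaks may be below detection.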
